A study of Mus musculus with 12 samples.

Results

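The genes of cholesterol and fatty acid synthesis are described here across 12 RNA-seq libraries of mouse small intestine. Members are the 30 rows of the deposited table whose gene symbol equals a symbol on a list of these pathways, out of 17175 genes in the table, and they were chosen by function and not by their values. They comprise 18 enzymes of the sterol arm (8 on the mevalonate route up to squalene and 10 from squalene to cholesterol), 6 enzymes of the fatty acid arm, and 6 regulators or carriers. The libraries come from the proximal and the distal segment of wild-type mice (WT) and of mice labelled Bmpr1a cKO (cKO is usually read as conditional knockout), Bmpr1a being a receptor for bone morphogenetic proteins (BMP), with 3 libraries in each of the 4 groups. All samples are labelled small intestine. The labels used here give no age, sex, strain, promoter or Cre line, and no statement that the libraries of a group came from separate litters, so the p-values measure the spread between these libraries. The series set out to ask how BMP signalling relates to villus length along the small intestine.

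Cholesterol and fatty acids are both built from cytosolic acetyl-CoA. The sterol regulatory element-binding proteins (SREBPs, products of Srebf1 and Srebf2) are held in the endoplasmic reticulum by Scap and the Insig proteins when sterols are plentiful. When sterols are low they move to the Golgi, are cleaved there and switch on the genes of both arms, with the Srebf1 product acting mainly on fatty acid genes and the Srebf2 product mainly on sterol genes. The small intestine is a major site of cholesterol synthesis as well as of uptake.

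Values are scaled reads: the deposited value of each gene in each library, which is its read count plus 1 divided by a size factor of the library. The libraries held 11242024 to 17722756 reads, and the lowest count of any member in any library was 106 reads. Library checks differed between the groups. The share of reads from 12 mitochondrial genes was 17.4 to 26.0% in WT proximal, 9.75 to 14.8% in cKO proximal, 22.3 to 37.7% in WT distal and 9.95 to 27.7% in cKO distal libraries. All 8 epithelial markers were in the table and none was at 0 in any library. Bmpr1a itself stood at 772 to 1029 scaled reads in WT proximal against 833 to 1087 in cKO proximal libraries, and at 438 to 631 in WT distal against 486 to 668 in cKO distal libraries, so the gene-level value did not separate the genotypes. Id1, a direct target of BMP signalling, stood at 972 to 1650 in the 6 WT libraries and at 112 to 232 in the 6 cKO libraries. The 4 Y-linked genes had 0 reads in the cKO libraries numbered 1 of both segments and 1251 or more in each of the other 10.

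Across the pathway, scaled reads were divided by the exonic length of each gene (scaled reads per kb). That length joins the exons of all annotated transcripts and can far exceed a single transcript. For Fdps it was 4208 bases against 1382 in the longest coding transcript, and for Acaca 17074 against 9513. The order of genes below therefore depends on this divisor, while groups can be compared within a gene. In the WT proximal group the highest members were Insig1 at 461 ± 87.0, Ebp at 402 ± 75.6 and Elovl6 at 393 ± 120 scaled reads per kb (mean ± SD, n = 3), and the lowest were Acaca at 10.8 ± 1.22, Lss at 16.2 ± 3.89 and Acss2 at 27.3 ± 3.57. The top 3 overlapped within their spread. In the WT distal group Stard4 (662 ± 107), Hmgcs1 (533 ± 88.0) and Scd2 (481 ± 172) led, again within overlapping spreads, while Elovl6 was at 98.2 ± 20.7 scaled reads per kb. The cKO proximal group was led by Insig1 (1169 ± 376) and Srebf1 (1139 ± 541), and the cKO distal group by Scd2 (1314 ± 510) and Stard4 (943 ± 235). Within the sterol arm Lss, which closes the ring to lanosterol, had the lowest level per kb of joined exons in every group. Within the fatty acid arm Acaca or Acss2 did. The joined exons of these genes are long (Lss 10787, Acss2 10163 and Acaca 17074 bases). Whether they would stay lowest with the length of a single transcript was not tested.

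**Figure D1:**
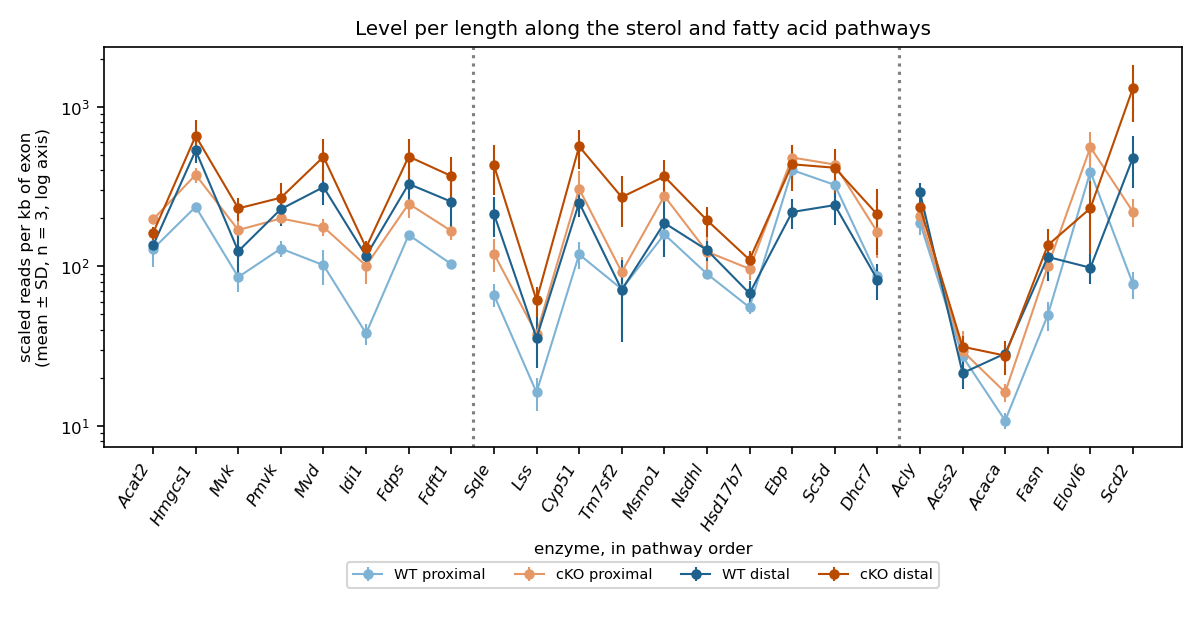
Level of each enzyme in scaled reads per kb of exon (log axis; mean ± SD of 3 libraries per group), ordered along the mevalonate steps, the steps after squalene and the fatty acid steps; lines join the enzymes of a group for reading only. Lss, Acss2 and Acaca, whose joined exons are long, are the low points on this scale. Scd2 spans the widest range, from 77.5 in WT proximal to 1314 in cKO distal libraries.

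Upstream sequences were read for the members that RefSeq lists in GRCm38.p6, taking the 250 bases before each annotated start; 25 of the 30 members had an entry, and Fdps, Fdft1, Sqle, Scd2 and Stard4 had none. Both strands were searched for a sterol regulatory element (TCACNCCAC), for the NF-Y box (CCAAT) and for the Sp1 box (GGGCGG), the sites of 2 partner factors of the SREBPs. The sterol regulatory element in this spelling was found in 1 of the 25 members, Hmgcs1, against 1.22% of 27025 genes. CCAAT was found for 14 of 15 sterol enzymes (93.3%), 2 of 5 fatty acid enzymes and 4 of 5 regulators, against 37.5% of all genes. GGGCGG was found for 14 of 15 sterol enzymes, 2 of 5 fatty acid enzymes and 5 of 5 regulators, against 35.4% of all genes. All genes here are the 27025 with a window, more than the 17175 of the expression table. The shares among expressed genes alone were not taken. A gene with several starts counted once if any of its windows held the motif. The only Acaca window (chr11:84195188-84195437, plus strand) lies inside the gene, whose model starts at 84129672. The bases before that first start were therefore not searched for Acaca. These are matches of letters and not measured binding.

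Windows of 5 enzymes that hold no annotated exon are shown as examples of both arms: the only member with a sterol regulatory element match, an early and a late sterol gene, Fasn, a fatty acid gene with CCAAT, and Acly, 1 of the 3 fatty acid genes without it (with Acaca and Elovl6). Capitals mark TCACNCCAC and CCAAT on either strand (CCAAT on the other strand reads ATTGG).
Hmgcs1 (chr13:119690101-119690350, plus strand): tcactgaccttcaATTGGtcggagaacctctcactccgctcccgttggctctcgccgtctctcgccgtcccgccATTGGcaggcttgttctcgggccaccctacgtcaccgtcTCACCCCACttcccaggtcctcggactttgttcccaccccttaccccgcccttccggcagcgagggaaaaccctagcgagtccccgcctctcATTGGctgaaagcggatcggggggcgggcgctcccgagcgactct
Mvd (chr8:122443423-122443672, minus strand): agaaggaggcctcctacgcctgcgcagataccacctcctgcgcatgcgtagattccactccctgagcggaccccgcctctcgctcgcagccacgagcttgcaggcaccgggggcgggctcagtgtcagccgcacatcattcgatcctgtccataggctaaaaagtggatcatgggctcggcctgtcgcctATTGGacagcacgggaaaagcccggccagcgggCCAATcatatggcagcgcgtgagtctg
Ebp (chrX:8193513-8193762, minus strand): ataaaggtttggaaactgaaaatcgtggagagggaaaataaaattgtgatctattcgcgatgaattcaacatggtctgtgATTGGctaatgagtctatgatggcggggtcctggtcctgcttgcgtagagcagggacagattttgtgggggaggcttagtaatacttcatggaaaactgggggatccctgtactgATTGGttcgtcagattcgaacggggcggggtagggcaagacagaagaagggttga
Acly (chr11:100528001-100528250, minus strand): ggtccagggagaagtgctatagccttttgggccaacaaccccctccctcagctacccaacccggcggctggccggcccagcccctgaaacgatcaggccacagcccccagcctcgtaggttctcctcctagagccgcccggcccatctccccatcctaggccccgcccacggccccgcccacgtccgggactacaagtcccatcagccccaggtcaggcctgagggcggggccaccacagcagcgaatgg
Fasn (chr11:120824548-120824797, minus strand): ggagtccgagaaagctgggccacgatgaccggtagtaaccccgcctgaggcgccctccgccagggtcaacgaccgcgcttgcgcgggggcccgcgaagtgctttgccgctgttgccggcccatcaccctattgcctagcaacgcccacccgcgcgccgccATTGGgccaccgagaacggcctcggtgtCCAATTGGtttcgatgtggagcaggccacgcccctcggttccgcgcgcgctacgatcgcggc
Hmgcs1 holds 3 CCAAT boxes and the sterol element between them, and Mvd and Ebp hold 2 boxes each. Fasn holds 3 boxes, 2 of which overlap on opposite strands in CCAATTGG, and no GGGCGG. Acly holds 4 GGGCGG boxes and no CCAAT.

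In the sterol arm, fold changes of cKO over WT mice were positive in both segments, though not every enzyme passed the test. Log2 fold changes below are cKO over WT or distal over proximal on the log2(value + 1) scale, with their standard error (SE), from a limma fit over all 17175 genes, and a gene is said to have risen or fallen where its Benjamini-Hochberg adjusted p was under 0.05. In the proximal segment 6 of 18 sterol enzymes rose and none fell, and 8.26% of all genes were called (4.21% higher, 4.05% lower). In the distal segment 10 of 18 rose and none fell, where 25.0% of all genes were called (13.3% higher). All 18 had a positive fold change in each segment, with a median of 0.74 proximally against 0.08 over all genes and of 0.73 distally against 0.06. The comparisons in the 2 segments share no library, but libraries of one number and genotype were taken as one animal, so they are not independent.

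Of the mevalonate enzymes, 3 of 8 rose in the proximal cKO libraries: Idi1, Mvk and Acat2. Idi1, the isomerase that makes the allylic building block of isoprenoids, stood at 123, 120 and 157 scaled reads in WT proximal and at 326, 448 and 288 in cKO proximal libraries (1.39, SE 0.20, adjusted p = 0.00141). Distal WT libraries held 347, 424 and 451, and distal cKO libraries 486, 483 and 410 (0.18, SE 0.20, adjusted p = 0.562). All 3 proximal cKO libraries lay above all proximal WT libraries, while the distal groups overlapped.

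Mvk, mevalonate kinase, was the mevalonate enzyme that rose in both segments. It stood at 183, 233 and 272 scaled reads in WT proximal against 419, 581 and 357 in cKO proximal libraries (0.96, SE 0.24, adjusted p = 0.0275), and at 269, 291 and 440 in WT distal against 716, 628 and 509 in cKO distal libraries (0.91, SE 0.24, adjusted p = 0.0142). The genotypes did not overlap in either segment. Acat2, the cytosolic thiolase of the first step, rose proximally by 0.63 (SE 0.17, adjusted p = 0.0391), with 268, 304 and 411 in WT against 499, 485 and 520 in cKO libraries.

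Hmgcs1, the synthase that feeds the committed step, stood at 1069, 1102 and 1087 scaled reads in WT proximal and at 1731, 1905 and 1534 in cKO proximal libraries, apart from each other but just outside the threshold (0.66, SE 0.19, adjusted p = 0.05). The distal groups overlapped, at 2338, 2113 and 2898 in WT and 3819, 2955 and 2285 in cKO libraries (0.28, SE 0.19, adjusted p = 0.31). Pmvk and Mvd (phosphomevalonate kinase and diphosphomevalonate decarboxylase), Fdps (farnesyl diphosphate synthase) and Fdft1 (squalene synthase) did not pass the test in either segment, with proximal fold changes of 0.63 to 0.82 and distal ones of 0.23 to 0.62. All 8 mevalonate enzymes had their 3 proximal cKO libraries above the 3 WT libraries, a pattern that 20.6% of all genes showed. Distally 3 of 8 did, against 18.9% of genes. Of the 10 enzymes after squalene 7 did so proximally and 8 distally.

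After squalene, 3 of 10 enzymes rose proximally (Lss, Cyp51 and Hsd17b7) and 9 of 10 rose distally (Sqle, Lss, Cyp51, Tm7sf2, Msmo1, Nsdhl, Hsd17b7, Ebp and Dhcr7), all except the sterol desaturase Sc5d at 0.76 (SE 0.26, adjusted p = 0.051). Cyp51, the lanosterol demethylase, stood at 617, 420 and 540 scaled reads in WT proximal against 1104, 1813 and 1140 in cKO proximal libraries (1.34, SE 0.25, adjusted p = 0.0066), and at 1047, 943 and 1337 in WT distal against 3060, 2687 and 1737 in cKO distal libraries (1.14, SE 0.25, adjusted p = 0.00465). In each segment every cKO library was above every WT library.

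Tm7sf2, a sterol reductase, had the largest distal difference of the sterol arm. It stood at 242, 195 and 504 scaled reads in WT distal and at 1654, 1098 and 839 in cKO distal libraries (2.0, SE 0.35, adjusted p = 0.00112). Its proximal groups overlapped, at 443, 246 and 264 in WT and 407, 503 and 307 in cKO libraries (0.37, SE 0.35, adjusted p = 0.543). Ebp, the sterol isomerase, showed a like pattern: 1127, 854 and 802 in WT proximal overlapped with 1092, 1313 and 932 in cKO proximal libraries (0.26, SE 0.24, adjusted p = 0.53), while 418, 475 and 627 in WT distal lay below 1359, 955 and 711 in cKO distal libraries (0.96, SE 0.24, adjusted p = 0.00994).

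Lss stood at 148, 154 and 224 scaled reads in WT proximal and at 383, 414 and 425 in cKO proximal libraries (1.24, SE 0.25, adjusted p = 0.00955). Distally its groups met, with 280, 337 and 533 in WT and 787, 511 and 687 in cKO libraries (0.82, SE 0.25, adjusted p = 0.0268), with WT library 3 above cKO library 2. Hsd17b7, a ketosterol reductase, rose by 0.80 (SE 0.19, adjusted p = 0.0202) proximally, from 304, 256 and 288 in WT to 439, 467 and 573 in cKO libraries, and by 0.70 (SE 0.19, adjusted p = 0.0138) distally. Msmo1, the methylsterol monooxygenase, stood at 912, 879 and 1659 in WT distal against 2926, 2022 and 1799 in cKO distal libraries, with no overlap (1.0, SE 0.25, adjusted p = 0.00981).

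Sqle (squalene epoxidase), Nsdhl (a sterol dehydrogenase) and Dhcr7 (the last reductase before cholesterol) also rose distally, by 0.99, 0.61 and 1.28 with adjusted p of 0.0153, 0.0492 and 0.0105. Across the segments 4 sterol enzymes rose in both (Mvk, Lss, Cyp51 and Hsd17b7), where 2.63% of all genes did. A further 2 passed proximally alone and 6 distally alone, and 6 in neither segment (Hmgcs1, Pmvk, Mvd, Fdps, Fdft1 and Sc5d).

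The sterol counts depended on single libraries. The proximal count of 6 fell to 3 without WT library 2 or without cKO library 2, and Idi1, Lss and Cyp51 kept their call whichever library was left out; the distal count of 10 fell to 6 without WT library 1, 4 without WT library 2 and 2 without cKO library 1, and Cyp51 and Tm7sf2 kept theirs. With the mitochondrial share as a covariate 1 sterol enzyme passed proximally (Idi1) and none distally, and without both cKO libraries numbered 1, those with no Y-linked reads, 4 passed proximally and 2 distally. That covariate also lowered the calls over all genes from 1418 to 292 proximally and from 4297 to 1356 distally. Calls over all genes fell in these other runs too. Proximally they fell to 587 without WT library 2 and to 580 without cKO library 2. Distally they fell to 3106 without WT library 1, 2672 without WT library 2 and 2466 without cKO library 1. Without both cKO libraries numbered 1 they were 766 proximally and 2160 distally. The distal sterol count was at most 14 with a single library left out. Over every alternative run the fold change of proximal Lss was 1.10 or more and that of distal Tm7sf2 1.41 or more.

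**Figure D2:**
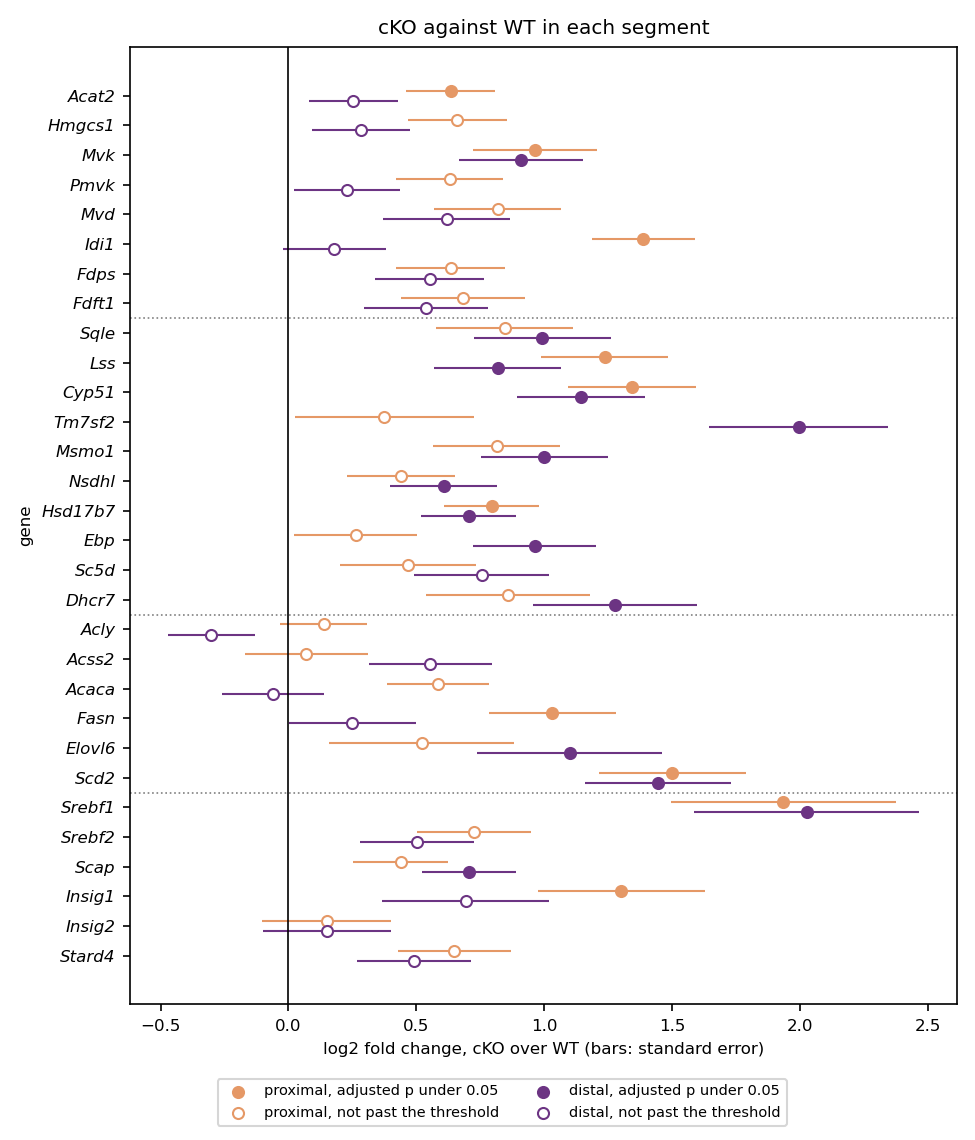
Log2 fold change of cKO over WT for each member in the proximal and distal segment (bars: standard error; filled: adjusted p under 0.05), with dotted lines between the mevalonate steps, the steps after squalene, the fatty acid enzymes and the regulators and carrier. After squalene 9 of 10 distal points are filled against 3 of 10 proximal ones; Acly and Acaca lie below 0 distally.

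In the fatty acid arm 2 of 6 enzymes rose proximally (Scd2 and Fasn), where 8.26% of all genes were called, and 2 of 6 distally (Scd2 and Elovl6), where 25.0% were, and none fell. The median fold change was 0.55 proximally and 0.40 distally, against 0.08 and 0.06 over all genes.

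Scd2, a stearoyl-CoA desaturase that makes monounsaturated fatty acids, rose in both segments. It stood at 502, 342 and 426 scaled reads in WT proximal and at 1438, 966 and 1196 in cKO proximal libraries (1.5, SE 0.29, adjusted p = 0.00753). Distal WT libraries held 2427, 1805 and 3656 scaled reads, and distal cKO libraries 10397, 5476 and 5669 (1.44, SE 0.29, adjusted p = 0.0026). No cKO library overlapped with WT libraries of its segment, and the 4 groups followed each other without overlap from WT proximal to cKO distal.

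Fasn, fatty acid synthase, stood at 468, 491 and 670 scaled reads in WT proximal and at 1153, 1011 and 1128 in cKO proximal libraries, without overlap (1.03, SE 0.25, adjusted p = 0.023). Distally it overlapped, at 857, 1333 and 1577 in WT and 1764, 1025 and 1672 in cKO libraries (0.25, SE 0.25, adjusted p = 0.507). Elovl6, the elongase that turns palmitate into stearate, stood at 620, 505 and 770 in WT distal and at 1855, 1958 and 654 in cKO distal libraries (1.10, SE 0.36, adjusted p = 0.039), with cKO library 3 within the WT range. Its proximal values of 3370, 1863 and 2349 in WT and 3518, 4506 and 2749 in cKO libraries overlapped (0.52, SE 0.36, adjusted p = 0.399).

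Acaca, the carboxylase that makes malonyl-CoA, stood at 175, 171 and 208 scaled reads in WT proximal and at 255, 319 and 258 in cKO proximal libraries, apart but not past the threshold (0.58, SE 0.20, adjusted p = 0.0864). Distally it was at 415, 501 and 541 in WT and 435, 598 and 381 in cKO libraries (-0.06, SE 0.20, adjusted p = 0.857). Acly and Acss2, which supply acetyl-CoA from citrate and from acetate, did not pass in either segment: Acly was at 0.14 proximally and -0.30 distally, where its 3 cKO libraries (1245, 1182 and 1297) lay below the 3 WT libraries (1350, 1786 and 1481) as in 15.9% of all genes, and Acss2 was at 0.07 and 0.55. Only 1 fatty acid enzyme, Scd2, kept its call in both segments whichever library was left out. The proximal count fell to 1 without WT library 1 or 2 or any cKO library, the distal count fell to 1 without WT library 1 or 2 or cKO library 1 or 2, and no fatty acid enzyme passed in either segment once the mitochondrial share was a covariate.

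Among the regulators, Srebf1 had the largest genotype difference of all 30 members in both segments. It stood at 1819, 1120 and 1772 scaled reads in WT proximal and at 9271, 3206 and 6776 in cKO proximal libraries (1.93, SE 0.44, 3.82-fold, adjusted p = 0.0175). Distal WT libraries held 735, 893 and 1421, and distal cKO libraries 7667, 2186 and 3773 (2.03, SE 0.44, 4.07-fold, adjusted p = 0.0045). The genotypes did not overlap in either segment, and cKO library 2 was the lowest of its group in both. RefSeq lists 3 starts for Srebf1 (at chr11:60199089-60222581 in the gene annotation, minus strand), and a gene-level count cannot separate their transcripts.

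Insig1, an endoplasmic reticulum protein that retains the SREBPs and is itself an SREBP target, rose proximally, from 1726, 1208 and 1340 scaled reads in WT to 4434, 2284 and 4125 in cKO libraries (1.30, SE 0.33, adjusted p = 0.0278). Distally it overlapped, with 726, 558 and 987 in WT and 2020, 932 and 898 in cKO libraries (0.69, SE 0.33, adjusted p = 0.14). Scap, the escort protein of the SREBPs, rose distally, from 401, 495 and 603 in WT to 901, 639 and 904 in cKO libraries (0.71, SE 0.19, adjusted p = 0.0134), and was at 0.44 proximally (adjusted p = 0.157).

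Srebf2, the regulator of the sterol arm, stood at 1782, 1676 and 2129 scaled reads in WT proximal and at 3079, 3450 and 2704 in cKO proximal libraries, without overlap and outside the threshold (0.72, SE 0.22, adjusted p = 0.0616). Distally it overlapped, with 2389, 3165 and 3568 in WT and 5969, 3684 and 3494 in cKO libraries (0.50, SE 0.22, adjusted p = 0.119). Stard4, a soluble cholesterol carrier, was at 0.65 proximally (adjusted p = 0.0873) and 0.49 distally (adjusted p = 0.124), and Insig2, the second Insig, at 0.15 in each segment (adjusted p = 0.753 and 0.707). In all, 2 of 6 regulators or carriers rose in each segment and none fell, with a median fold change of 0.69 proximally and 0.60 distally, against 0.08 and 0.06 over all genes. The share of all genes called was 8.26% proximally and 25.0% distally, and 2 of 6 is near the distal share.

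The proximal count of 2 fell to 0 without WT library 2, cKO library 1 or cKO library 3 and to 1 without WT library 3; the distal count of 2 fell to 1 without WT library 1 or cKO library 1, with Srebf1 past the threshold in each. With the mitochondrial share as a covariate none passed in either segment, at an adjusted p of 0.214 for proximal and 0.12 for distal Srebf1. The fold change of Srebf1 was 1.49 or more proximally and 1.55 or more distally over every alternative run.

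**Figure D3:**
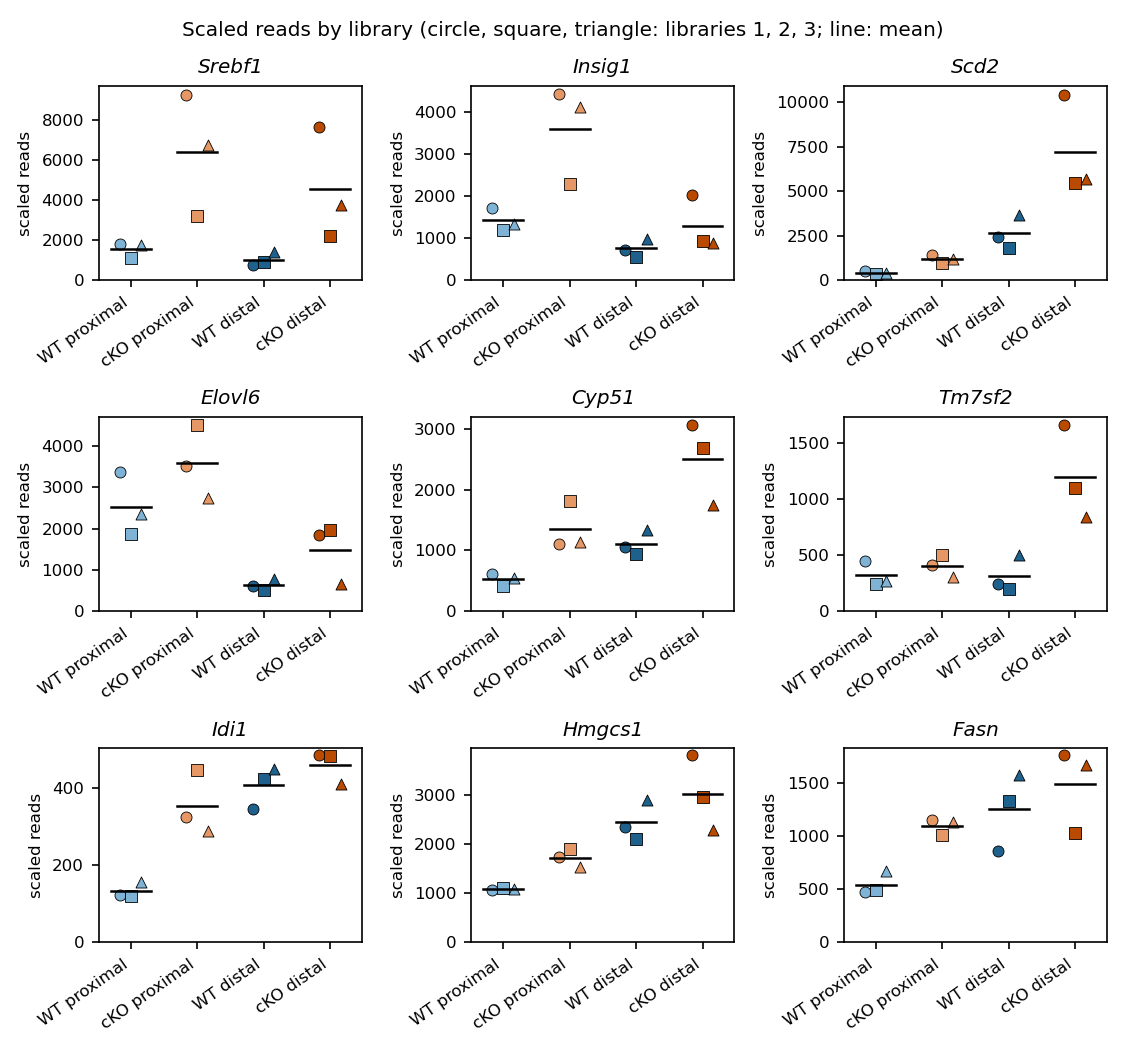
Scaled reads of 9 members in each library (linear axes from 0; circle, square and triangle: libraries 1, 2 and 3; line: group mean of 3 libraries). Srebf1 reaches 9271 in cKO proximal library 1 against at most 1819 in any WT library, and Scd2 reaches 10397 in cKO distal library 1.

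Other measures moved with genotype in the same libraries. In the distal segment the summed level of the 6 B cell markers was 5673 to 17188 scaled reads in WT and 121 to 431 in cKO libraries, and in the proximal segment 448 to 2722 and 185 to 320; all 6 fell distally and 2 of 6 proximally. The 7 enterocyte markers summed to 170880 to 428858 in WT distal, 430070 to 736365 in cKO distal, 358394 to 543083 in WT proximal and 573762 to 685686 in cKO proximal libraries, and 2 of 7 rose distally and none proximally. The 4 proliferation markers summed to 3067 to 3997 in WT distal and 837 to 2105 in cKO distal libraries, and 3 of 4 fell distally. Of 7 genes listed as adipocyte markers, Adipoq, Plin1, Lep, Retn and Cfd were not in the table. The other 2, Cidec and Adipor2, summed to 2573 to 3503 in WT distal and 4630 to 7292 in cKO distal libraries. They are not read here as a level of adipocytes. Of 6 myeloid markers 4 fell in each segment, with sums of 4288 to 7491 in WT proximal, 1270 to 1929 in cKO proximal, 3918 to 7274 in WT distal and 1158 to 2774 in cKO distal libraries. Plasma cell markers fell for 2 of 3 proximally (952 to 1940 in WT, 129 to 562 in cKO libraries) and for 3 of 3 distally (3405 to 5348 and 120 to 309). All 5 fibroblast markers had a negative fold change in both segments (medians -1.74 and -0.99) and none passed, with sums of 2156 to 14149 in WT proximal, 1324 to 2285 in cKO proximal, 1518 to 16928 in WT distal and 3357 to 3705 in cKO distal libraries. Of the 8 epithelial markers 1 rose proximally and 3 distally, of 4 T cell markers 1 fell distally, and no smooth muscle marker passed. None of the markers in the table was at 0 in all libraries of a group. The part of these markers in the differences of the synthesis genes was not tested, and in bulk tissue fewer cells of a type and less RNA per cell cannot be told apart.

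Whether the genotype effect differed between segments was tested as an interaction (distal minus proximal effect). No member passed with limma, where 0.576% of all genes did. At an unadjusted p under 0.05 there were 4 members: Idi1 at -1.21 (SE 0.28, adjusted p = 0.0717), Tm7sf2 at 1.62 (SE 0.495, adjusted p = 0.15), Acaca at -0.64 (SE 0.28, adjusted p = 0.343) and Fasn at -0.78 (SE 0.35, adjusted p = 0.358), against 13.2% of all genes. The other tools called 0 members (edgeR, limma voom) or 1 (DESeq2, Idi1), each with 5 at an unadjusted p under 0.05. Over all genes edgeR called 59 of 17175, limma voom 20 of 17175 and DESeq2 594 of 17173. With the animal as a replicate block Idi1 passed (limma adjusted p = 0.0297), where 460 of 17175 genes did. Without WT distal library 3 the count was 1, in the positive direction, where 266 of 17175 genes passed. All 8 mevalonate enzymes had a negative interaction (median -0.29) and 7 of 10 enzymes after squalene a positive one (median 0.18), against a median close to 0 over all genes. The higher count of calls after squalene in the distal segment is therefore not shown to be a difference between segments.

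Between the segments of WT mice, 6 of 8 mevalonate enzymes rose distally (Hmgcs1, Pmvk, Mvd, Idi1, Fdps and Fdft1) and none fell, with a median of 1.10 against 0.04 over all genes. After squalene 3 of 10 rose (Sqle, Lss and Cyp51) and 1 fell (Ebp), with a median of 0.23. Whether enzymes before and after squalene differed was not tested. Over all genes 24.1% were called, 11.9% higher and 12.2% lower.

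Idi1 (1.61, SE 0.20, adjusted p = 8.35e-05), Mvd (1.63, SE 0.25, adjusted p = 0.00039), Hmgcs1 (1.16, SE 0.19, adjusted p = 0.000739) and Sqle (1.66, SE 0.27, adjusted p = 0.000599) had the smallest p of the sterol arm. Mvd stood at 138, 230 and 200 scaled reads in WT proximal and at 582, 449 and 721 in WT distal libraries. Sqle stood at 385, 301 and 418 in WT proximal and at 1163, 864 and 1526 in WT distal libraries. For all 4, which were picked by their p in this comparison, the lowest distal library was above the highest proximal one, as in 19.2% of all genes.

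Ebp fell by 0.88 (SE 0.24, adjusted p = 0.0167), from the proximal values given above to 418, 475 and 627 scaled reads distally. Acat2, Mvk, Tm7sf2, Msmo1, Nsdhl, Hsd17b7, Sc5d and Dhcr7 did not pass, with fold changes from -0.40 to 0.52. Idi1, Mvd, Hmgcs1, Fdps, Fdft1, Sqle, Lss and Cyp51 kept their calls whichever of the 6 WT libraries was left out; Pmvk lost its call without WT distal library 3, and Ebp without WT proximal library 1 or WT distal library 1 or 2. With the animal as a block Mvk also passed (0.52, adjusted p = 0.0494).

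In the fatty acid arm 4 of 6 enzymes rose from the proximal to the distal WT segment and 1 fell. Scd2 rose by 2.59 (SE 0.29, 6.01-fold, adjusted p = 2.95e-05), the largest segment difference of any member. Acaca rose by 1.39 (SE 0.20, adjusted p = 0.000257), Fasn by 1.18 (SE 0.25, adjusted p = 0.00372) and Acly by 0.64 (SE 0.17, adjusted p = 0.0151). Elovl6 fell by 1.98 (SE 0.36, adjusted p = 0.0015), so that the elongase and the desaturase moved in opposite directions. In each of the 5 genes the segments did not overlap; over all 30 members the distal WT libraries were all above the proximal ones for 17 and all below for 3, against 19.2% and 18.8% of all genes. Acly lost its call without WT proximal library 1 or WT distal library 2, and the other 4 kept theirs whichever library was left out.

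Among the regulators Stard4 rose distally in WT, from 1902, 1982 and 1789 to 3023, 3913 and 4158 scaled reads (0.96, SE 0.22, adjusted p = 0.00675). Srebf2 rose by 0.69 (SE 0.22, adjusted p = 0.0366). Insig1 lay lower in every distal library but outside the threshold (-0.93, SE 0.33, adjusted p = 0.052), and with the animal as a block it passed (adjusted p = 0.00897). Srebf1 overlapped between the segments (-0.65, SE 0.44, adjusted p = 0.32) and also passed with that block (adjusted p = 0.0408), which made the count 4 regulators, 2 in each direction. Srebf2 lost its call without WT proximal library 1 or 2 or WT distal library 2 or 3, and the count fell to 1 without WT proximal library 2 or WT distal library 2.

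In the cKO mice 10.5% of all genes differed between segments (4.16% higher, 6.36% lower). Of the sterol enzymes 7 of 18 rose distally and none fell: Mvd (1.43, SE 0.25, adjusted p = 0.00177), Fdft1 (1.10), Fdps (0.96) and Hmgcs1 (0.78) before squalene, and Sqle (1.81, SE 0.27, adjusted p = 0.000508), Tm7sf2 (1.53) and Cyp51 (0.88) after it. Sqle stood at 581, 844 and 575 scaled reads in cKO proximal and at 3256, 2298 and 1614 in cKO distal libraries. Mvd stood at 334, 367 and 285 in cKO proximal and at 1207, 773 and 732 in cKO distal libraries. Both were apart between the segments, as were Fdft1 (674, 799 and 642 against 2105, 1431 and 1138) and Fdps (970, 1260 and 889 against 2688, 1903 and 1572).

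In the fatty acid arm of the cKO mice Scd2 (2.53, SE 0.29, 5.79-fold, adjusted p = 5.16e-05) and Acaca (0.74, SE 0.20, adjusted p = 0.0285) rose distally and Elovl6 fell by 1.40 (SE 0.36, adjusted p = 0.0238). Of the regulators Stard4 rose by 0.80 (SE 0.22, adjusted p = 0.0344) and Insig1 fell by 1.54 (SE 0.33, adjusted p = 0.00729), with every distal cKO library below every proximal one. Over the 30 members the distal cKO libraries were all above the proximal ones for 13 and all below for 3, against 13.9% and 16.2% of all genes. The cKO libraries of this comparison are also those of the genotype comparisons.

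The sterol count in cKO mice fell from 7 to 3 without cKO proximal library 3 and to 4 without cKO distal library 1; Mvd, Fdft1 and Sqle kept their calls whichever library was left out. The fatty acid count fell from 3 to 1 without cKO proximal library 1, Scd2 keeping its call in all, and the regulator count fell from 2 to 1, leaving Insig1, without cKO proximal library 1 or 3 or cKO distal library 1 or 2. With the animal as a block Lss and Nsdhl also passed, at adjusted p of 0.0287 and 0.0291. In both genotypes together 9 members rose distally (Hmgcs1, Mvd, Fdps, Fdft1, Sqle, Cyp51, Acaca, Scd2 and Stard4), where 2.42% of all genes did, and 1 fell, Elovl6.

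**Figure D4:**
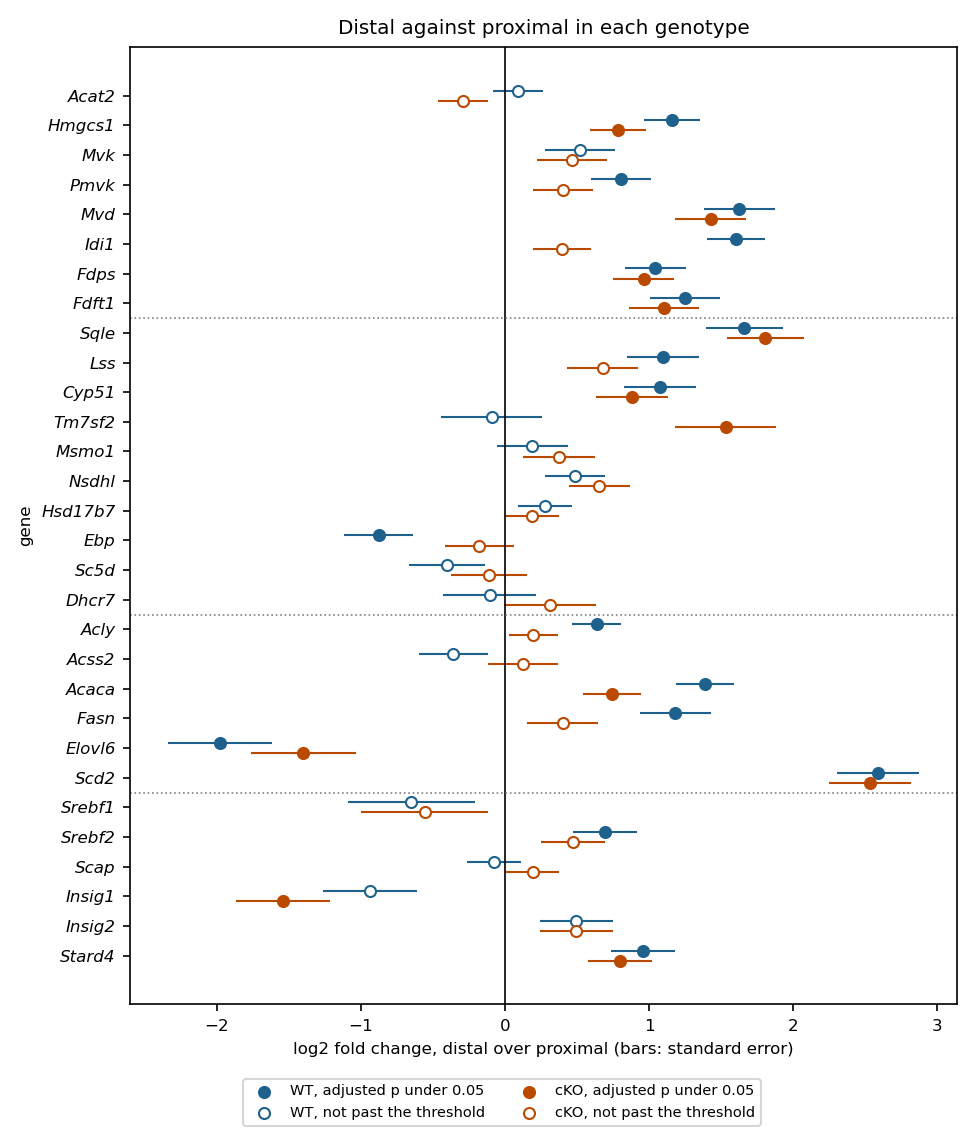
Log2 fold change of distal over proximal for each member in WT and in cKO mice (bars: standard error; filled: adjusted p under 0.05). Scd2 is farthest to the right in both genotypes (2.59 and 2.53), Elovl6 farthest to the left in WT (-1.98) and Insig1 in cKO mice (-1.54).

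Markers of other cell types also differed between the segments. The 4 smooth muscle markers summed to 62.3 to 140 scaled reads in WT proximal and 182 to 429 in WT distal libraries, and 2 of 4 rose distally in each genotype. All 6 B cell markers and all 4 proliferation markers rose distally in WT mice, while 0 and 1 did in cKO mice. All 3 plasma cell markers rose distally in WT and none in cKO mice. In each genotype 3 of 4 T cell markers and 3 of 7 enterocyte markers fell distally, as did Cidec and Adipor2, and 1 T cell marker rose in WT mice. With the mitochondrial share as a covariate the segment calls of WT mice among the members all stood; the part of the markers was not tested.

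In 3 of the 4 groups 1 library was the highest for most sterol enzymes. WT distal library 3 was the highest of its group for 18 of 18 sterol enzymes, cKO distal library 1 for 16 of 18 and cKO proximal library 2 for 13 of 18, and cKO distal library 3 was the lowest of its group for 17 of 18. In WT proximal no library led: libraries 1, 2 and 3 were the highest for 9, 3 and 6 enzymes and the lowest for 6, 10 and 2. Srebf1 and Insig1 followed another order: cKO proximal library 2 was the lowest of its group for both, and cKO distal library 2 was the lowest for Srebf1. WT distal library 3 had the lowest mitochondrial share of its group (22.3%). Libraries cKO distal 3 (27.7%) and cKO proximal 2 (14.8%) had the highest of theirs. In cKO distal library 1 the share was 11.5%, neither the lowest nor the highest of its group, and the Y-linked genes had 0 reads there. The part of the mitochondrial share in the order of libraries was not tested.

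**Figure D5:**
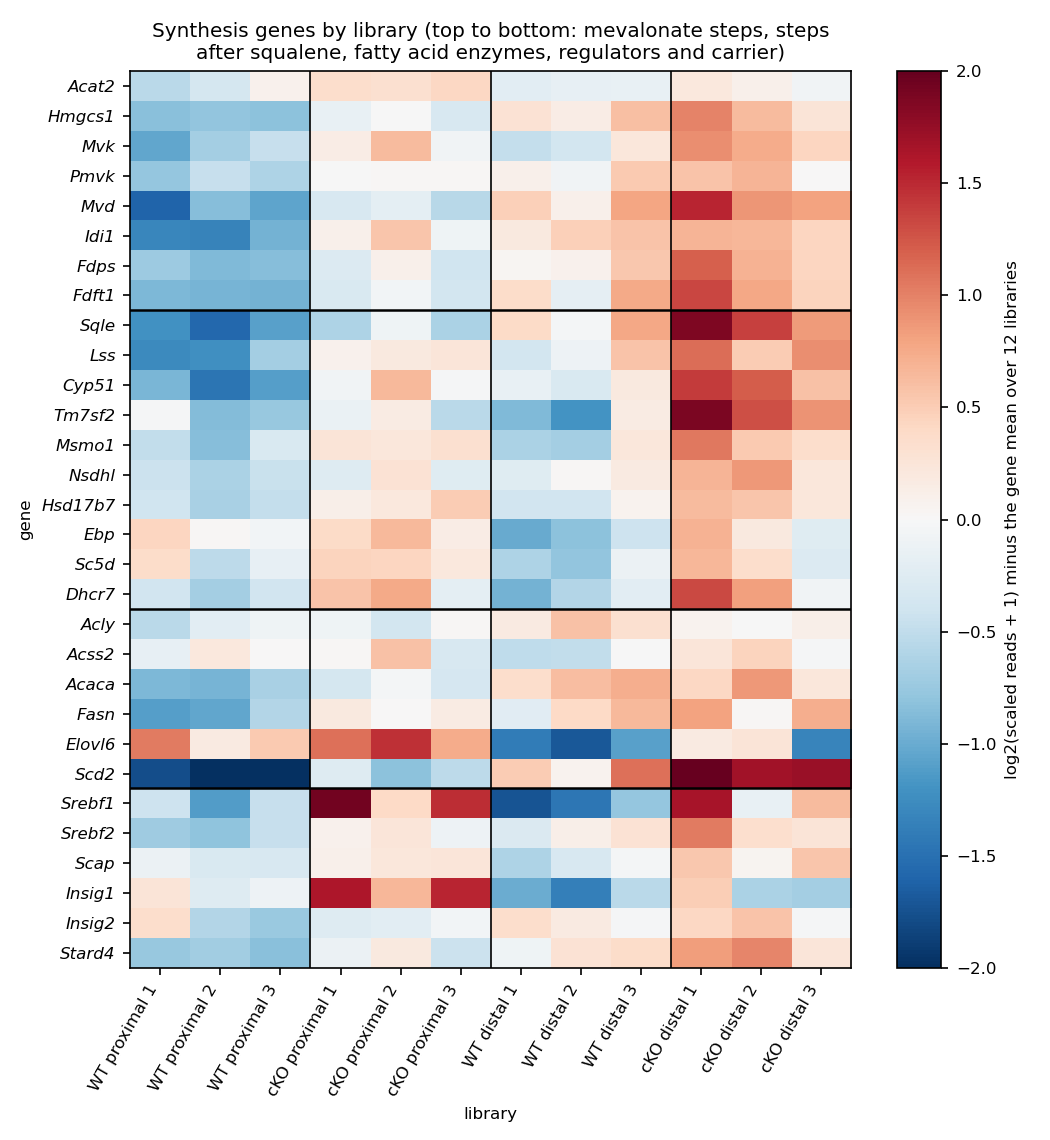
Each member in each of the 12 libraries, as log2(scaled reads + 1) minus the mean of that gene over the libraries (colour, from -2 to 2), in the order mevalonate steps, steps after squalene, fatty acid enzymes, and regulators and carrier. Most sterol enzymes are low in the 3 WT proximal libraries and high in the 3 cKO distal libraries; Elovl6 and Insig1 run the other way between segments.

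Genes around the pathway were counted from 5 further lists, to be read against the 8.26% of all genes called proximally and the 25.0% called distally (13.3% higher, 11.7% lower). Of 11 genes of SREBP processing and turnover none passed proximally and 7 rose and 1 fell distally in cKO mice, among them Erlin2, a membrane protein of the endoplasmic reticulum (1.02, SE 0.24, adjusted p = 0.00702). Of 20 genes of sterol uptake, efflux and storage 1 rose and 1 fell proximally and 9 rose and 4 fell distally; the proximal count is near the share of all genes. Abca1, the exporter of cholesterol to lipoproteins, rose in both segments, by 1.27 (SE 0.26, adjusted p = 0.0116) and 1.52 (SE 0.26, adjusted p = 0.00104).

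Scarb1, a lipoprotein receptor, stood at 1633, 1522 and 1765 scaled reads in WT proximal and at 266, 361 and 516 in cKO proximal libraries, so it fell by 2.15 (SE 0.36, adjusted p = 0.00347). From the proximal to the distal WT segment it fell by 3.87 (SE 0.36, adjusted p = 5.93e-06). The cKO proximal libraries lay between the WT proximal and the WT distal libraries (127, 136 and 80) without overlap.

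Of 13 genes of the isoprenoid and dolichol branch, which leaves the sterol route at farnesyl diphosphate, 3 rose proximally and 7 distally in cKO mice and none fell. Pdss1, which makes the tail of coenzyme Q, rose in both, by 1.30 (SE 0.28, adjusted p = 0.0145) and 2.08 (SE 0.28, adjusted p = 0.000166). Of the 14 measured genes of fatty acid elongation and desaturation (of 16 listed) 3 rose and 1 fell proximally and 7 rose and 2 fell distally; Hacd3, a dehydratase of the elongation cycle, rose in both (0.88 and 1.17, adjusted p = 0.00968 and 0.000378). Of the 14 measured genes of citrate, NADPH and lipogenic support (of 15 listed) 1 fell proximally, Me1, and 6 rose distally, led by Idh1 (1.21, SE 0.21, adjusted p = 0.000976). The medians of these 5 lists were 0.05 to 0.60 proximally and 0.36 to 0.80 distally.

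Between the segments of WT mice the counts, beside 11.9% higher and 12.2% lower of all genes, were as follows: 0 of 11 SREBP processing genes rose and 3 fell, 1 of 20 uptake genes rose and 3 fell, and 1 of 14 support genes rose and 5 fell, among them Me1 (-3.52) and Idh1 (-2.20). In cKO mice, where 10.5% of all genes were called, the corresponding counts were 0 and 2, 1 and 2, and 1 and 2. The isoprenoid branch had 0 higher and 1 lower in WT and 1 higher and 0 lower in cKO mice, and the elongation list 2 higher and 0 lower in each.

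Some members share sequence with other genes, and whether strand was used in counting is not given in the sources used here. Fdft1 overlaps 774 exonic bases of Ctsb on the opposite strand, a gene with a mean of 9351 reads per library. Fdps overlaps 1124 exonic bases of Gm43738, and Tm7sf2 overlaps 532 of Vps51 on the same strand. Acat2 is 97.7% identical to Acat3 over 1477 bases, a gene with a mean of 21.9 reads, and 98.7% identical to Tcp1 over 445 bases, a gene with a mean of 1188 reads. Scd2 is 95.5% identical to a Scd1 transcript over 623 bases. Acaca, Elovl6, Fdft1, Fdps and Idi1 have processed pseudogenes that are over 90% identical. The values of these members are uncertain to the extent that reads were shared.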

How the data were processed

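RNA was sequenced from 12 samples of mouse small intestine, with total RNA extracted by Trizol and libraries made with an Ovation RNA-Seq kit per the labels' protocols. The tools listed per the submitters' processing notes are STAR, on the build mm10, and DESeq2 1.28.1; the STAR version and the counting tool are not given in the sources used here. The sample columns deposited by the authors hold a signal scaled per library. All 206100 values (100%) were whole multiples of a column step within 0.001 steps, so reads were recovered as the multiple minus 1; 0 sample columns were left over. The log2 fold change and its error, the score (a Wald statistic) and the p-value columns deposited by the authors describe a contrast of their own and were not used.

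The test was limma 3.58.1 (empirical Bayes with trend, R 4.3.3) on log2(value + 1) with 4 group means over all 12 libraries and 17175 genes, Benjamini-Hochberg adjusted p under 0.05, in 5 comparisons. This understates changes of genes with few reads. Alternatives were edgeR 4.0.16, DESeq2 1.42.0 and limma voom on recovered reads, TMM scaling, offsets of 0.5 and 8, a filter on low values, the 6 compared libraries alone, replicate blocks, the mitochondrial share as a covariate, and leaving out libraries. Per the sample descriptions a number is shared by the segments of a genotype; deviations of same-numbered libraries correlated at 0.17 to 0.31 in WT and 0.16 to 0.32 in cKO, each best with its own number, so the numbers were taken as animals. Between genotypes they correlated at -0.15 to 0.05 and do not pair.

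All 30 members are accounted for and those past the threshold are named; values per library are given for up to 4 members per comparison with the smallest p in each of the 3 groups of members, for some also in the other segment, those of Mvk and Acat2 were added after their values were seen, and up to 2 genes of each further list are named. Members, lists and tests were chosen with earlier results of these data known. Gene models are from GENCODE M21 and upstream sequences from RefSeq GRCm38.p6. Some genes of these pathways are not reported here.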

Additional observations from a re-analysis of the deposited data

Results flagged for a closer look

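The effect of genotype on Me1, the malic enzyme that supplies NADPH for fatty acid synthesis, differed between segments by 1.68 on the log2 scale (SE 0.34, limma adjusted p = 0.0452). Me1 stood at 1781, 1799 and 1544 scaled reads in WT proximal and at 806, 1022 and 658 in cKO proximal libraries, a fall of 1.06 (adjusted p = 0.0181). Distal WT libraries held 172, 173 and 108, and distal cKO libraries 196, 188 and 314 (0.61, adjusted p = 0.0807). All cKO libraries lay below all WT libraries proximally and above them distally. Over all genes the interaction calls depended on the setting. They numbered 99 in the main fit, 594 with DESeq2 and 460 with the animal as a block. With limma voom there were 20, without WT distal library 2 there were 7, and without both cKO libraries numbered 1 there were 2. Whether the Me1 call stood in each setting was not examined.

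The genotype effect on the plasma cell marker Mzb1 differed between segments by -3.13 (SE 0.62, limma adjusted p = 0.0403). It stood at 567, 766 and 527 scaled reads in WT distal and at 15, 10 and 22 in cKO distal libraries. All 3 plasma cell markers, Mzb1 among them, also had a negative fold change proximally, from -2.54 to -1.08. The segments thus differed in the size of the fall and not in its direction. Whether the Mzb1 call stood in other settings was not examined.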

How the results depend on the processing

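No member that passed, or had an unadjusted p under 0.05, changed sign under any setting run. Counts that moved by over 1.5 times are given here (main count in brackets). With the mitochondrial share as a covariate the proximal genotype counts were 1 sterol (6), 0 fatty acid (2) and 0 regulator (2) genes and the distal ones 0 (10), 0 (2) and 0 (2). With only the 6 libraries compared, the proximal counts were 11 sterol and 4 regulator genes, the distal ones 1 fatty acid and 1 regulator gene, and the cKO segment count 1 regulator gene (2). Over all genes that setting called 1659 proximally (1418), 3010 distally (4297) and 1751 between cKO segments (1806). DESeq2 called 4 proximal regulators and 1 sterol interaction (0), and limma voom 1 proximal regulator and 1 distal fatty acid gene. Over all genes DESeq2 called 2304 proximally and 594 interactions (99), and limma voom 1145 proximally and 4252 distally. TMM scaling left 1 distal fatty acid gene; it moved the median of all genes from 0.08 to -0.01 proximally and from 0.06 to -0.01 distally, and the proximal calls over all genes from 723 higher and 695 lower to 557 and 814.

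Leaving out both cKO libraries numbered 1 left 1 proximal fatty acid gene and 1 regulator, distally 2 sterol, 1 fatty acid and 1 regulator gene, and in the cKO segments 2 sterol, 1 fatty acid and 1 regulator gene. Over all genes it left 766, 2160 and 862 calls in these comparisons. With single libraries left out, calls over all genes were 580 to 1360 proximally and 2466 to 4954 distally. They were 2741 to 3924 between WT segments, 1031 to 1545 between cKO segments and 7 to 266 for the interaction. Leaving out single libraries gave 3 to 5 sterol, 1 to 2 fatty acid and 0 to 2 regulator genes proximally; 2 to 14, 1 to 2 and 1 to 3 distally; 9 to 10, 4 to 5 and 1 to 2 between WT segments; 3 to 8, 1 to 2 and 1 to 2 between cKO segments; and 0 to 1 sterol interactions.

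The replicate block by animal gave 4 regulators between WT segments (2) and 1 sterol interaction (0); a block on the number alone, across genotypes, kept every count within 1.5 times, with 5 proximal and 10 distal sterol genes. Over all genes the block by animal called 4935 between WT segments (4137) and 460 interactions (99). The causes were not tested. With 3 libraries per group, a gene outside the threshold is not shown to be equal.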
